A study of Mus musculus with 6 samples.

Results

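The genes *Spp1*, *Gpnmb*, *Clec7a*, *Igf1*, *Lgals1*, *Lgals3*, *Cd9* and *Cd63*, which mark phagocytic states of microglia and include 2 galectins, were followed through all 6 libraries of the series. They are a list of 8 symbols chosen by their levels in the cell classes and regions of these same libraries, so those levels are described here and not tested. The deposited counts held 7 of the 8 under 1 identifier in both preparations, out of 27514 identifiers common to both. *Clec7a* was not analysed here. Microglial levels were set against the other cell types, between the preparations, and against the RNA that free transcripts of other cells could add.

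Prep 1 was made from the cerebral cortex of WT C57Bl/6J females aged 3 weeks and prep 3 from the hippocampus of WT C57Bl/6J females aged 5 weeks. The mice were perfused with saline, and the dissociated cells were freed of myelin and sequenced on the 10x Genomics droplet platform without a sort. In each preparation the cells of 3 mice were pooled into 1 suspension and run as 3 technical replicates, so each region is 1 biological sample. Region, age and preparation change together and cannot be told apart, and without a second sample per region no difference could be tested. The counts of the cortex list 31053 genes and those of the hippocampus 27998, so the gene annotation changes with region as well. Levels are unique molecular identifiers (UMIs) per 1000000 UMIs of the same cells, called CPM below. Bracketed ranges are exact 95% Poisson intervals, which cover counting error only, and the replicates show technical spread and not the spread between animals.

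In the postnatal brain a small part of the microglia leaves the homeostatic state and takes up dying cells, synapses and myelin fragments. Such cells switch on a shared program of secreted ligands, lectins and lysosomal or membrane proteins that also returns in ageing and disease. None of its genes belongs to microglia alone. Fibroblasts, macrophages, monocytes, mural cells, ependymal cells and oligodendrocyte precursors are known to express various of them, and droplet data carry free RNA from every cell of the suspension.

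The libraries held 39662203 to 50024850 UMIs. Of 33273 deposited barcodes, 13320 cortical and 14210 hippocampal ones were kept as cells. Microglia-like cells, named from their markers, were the most numerous class with 6173 cells in the cortex and 5827 in the hippocampus, at a median of 5472 and 6644 UMIs per cell. Their 10 defining markers, among them *Tmem119* and *P2ry12*, were 11.5 to 32.3 times higher than in all other cells of the same preparation. Among the barcodes kept as cells, those that occurred in more than 1 library of a preparation numbered 71 in the cortex and 749 in the hippocampus. They were 19 and 20 of the microglia-like cells but 558 of the 826 epithelial-like cells, and values without them are given where they bear on a result.

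*Spp1* (ENSMUSG00000029304) lies at chr5:104435118-104441050 on the plus strand of GRCm38, *Igf1* (ENSMUSG00000020053) at chr10:87858265-87937042 (+) and *Gpnmb* (ENSMUSG00000029816) at chr6:49036546-49070929 (+). The galectin genes *Lgals1* (ENSMUSG00000068220) and *Lgals3* (ENSMUSG00000050335) lie at chr15:78926725-78930465 (+) and chr14:47367751-47386160 (+). The tetraspanin genes *Cd9* (ENSMUSG00000030342) and *Cd63* (ENSMUSG00000025351) lie at chr6:125460266-125494791 on the minus strand and chr10:128900989-128912822 on the plus strand. All 7 are protein coding in GENCODE release M21. Exons of *Spp1* overlap *Gm42793* on the same strand and exons of *Cd9* overlap *Gm26728* on the opposite strand.

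The upstream sequences of *Spp1*, *Lgals3* and *Cd63* are shown because each was the gene of its kind (secreted ligand, galectin, tetraspanin) that stood furthest above the remaining microglia in the small microglial subcluster described further on. Each is the stretch from 250 to 51 bases before the RefSeq transcription start, in GRCm38.p6, and capitals mark a match to GAGGAAG or its reverse complement, a motif of the PU.1 type. PU.1 is the lineage factor of macrophages and microglia. The RefSeq promoter table held 7 of the 8 genes, not *Lgals1*, and for *Lgals3* and *Cd63* its start lies inside the gene span given above.

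Spp1: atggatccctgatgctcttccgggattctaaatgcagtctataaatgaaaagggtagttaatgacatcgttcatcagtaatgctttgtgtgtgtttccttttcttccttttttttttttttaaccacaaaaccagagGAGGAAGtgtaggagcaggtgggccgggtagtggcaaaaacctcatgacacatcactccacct

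Lgals3: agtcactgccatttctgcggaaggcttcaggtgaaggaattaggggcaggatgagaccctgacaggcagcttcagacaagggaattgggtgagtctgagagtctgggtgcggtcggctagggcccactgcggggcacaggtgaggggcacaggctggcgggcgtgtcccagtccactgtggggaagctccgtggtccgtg

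Cd63: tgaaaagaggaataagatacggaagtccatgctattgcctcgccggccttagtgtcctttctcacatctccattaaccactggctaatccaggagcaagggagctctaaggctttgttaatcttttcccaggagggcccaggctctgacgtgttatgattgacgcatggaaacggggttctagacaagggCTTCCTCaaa

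The *Spp1* stretch is chr5:104434861-104435060 (+), the *Lgals3* stretch chr14:47373610-47373809 (+) and the *Cd63* stretch chr10:128909095-128909294 (+). *Spp1* held GAGGAAG from position -113 to -107 and *Cd63* held its reverse complement from -60 to -54, while these letters were not in the *Lgals3* stretch. The motif was found on either strand in 8.12% of all 32851 promoter windows of that length. Neither TGANTCA, the AP-1 motif (5.57% of windows), nor the E-boxes CACGTG (4.34%) and CATGTG (10.2%) occurred in any of the 3 stretches.

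*Spp1* encodes osteopontin, a secreted phosphoprotein that binds integrins and CD44. Microglia-like cells held 3.66, 5.15 and 2.95 CPM in the 3 cortical replicates and 6.64, 7.69 and 4.46 CPM in the hippocampal ones. The hippocampal values were mostly higher, but the groups overlapped. A UMI of *Spp1* was found in 0.923% (0.700 to 1.20%) of cortical and 1.54% (1.24 to 1.89%) of hippocampal microglia-like cells, with exact binomial intervals.

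Fibroblast-like cells carried the largest share of the *Spp1* RNA among the kept cells. They held 2957, 2189 and 1714 CPM in the cortex and 1325, 1269 and 1948 CPM in the hippocampus, 558 and 245 times the microglial level. The 57 cortical cells of this class supplied 73.9% of the *Spp1* UMIs of the kept cells, and the 49 hippocampal ones 45.2%. Barcodes with over 6000 genes, which were not kept, held a further 1014 UMIs in the cortex and 799 in the hippocampus. Among the named classes pericyte-like cells came next with 36.7 CPM (31.1 to 43.1) and 142 CPM (126 to 159), and macrophage-like cells followed with 7.36 and 18.3 CPM. In the cortex the macrophage replicates, from 0 to 15.6 CPM, overlapped those of microglia. Neuron-like cells of the hippocampus reached 7.95 CPM, all of it from 1 cell with 37 UMIs.

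*Igf1*, the gene of a secreted growth factor that acts on oligodendrocytes and neurons, stood at 2.53, 3.32 and 3.12 CPM in cortical microglia-like cells. The hippocampal replicates held 3.06, 2.84 and 4.22 CPM and overlapped the cortical ones. The gene was highest in macrophage-like cells, at 111 CPM (92.4 to 133) in the cortex and 189 CPM (168 to 212) in the hippocampus, where 27.8% and 47.7% of cells held a UMI. Fibroblast-like cells reached 96.9 and 145 CPM with replicates from 0 to 218 CPM, so the order of the 2 classes could not be read from these libraries. Endothelial-like and astrocyte-like cells stayed below 1 CPM in both preparations.

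*Lgals1* encodes galectin-1, a small lectin that binds galactose-containing glycans. Its microglial level was 4.71, 2.58 and 3.21 CPM in the cortex and 5.15, 6.23 and 7.11 CPM in the hippocampus, with every hippocampal replicate above every cortical one. Many classes exceeded microglia. Vascular smooth muscle-like cells, named only in the cortex, held 985 CPM (945 to 1025), fibroblast-like cells 895 and 566 CPM, macrophage-like cells 345 and 461 CPM, and pericyte-like cells 124 and 187 CPM. Smooth muscle-like and fibroblast-like replicates overlapped in the cortex. Epithelial-like cells of the hippocampus held 273 CPM, and 288 CPM without the shared barcodes. A hippocampal cluster of 264 cells led by the smooth muscle genes *Tagln* and *Acta2*, left unnamed because the marker list closest to it was the endothelial one, held 265 CPM.

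*Lgals3* encodes galectin-3, which marks damaged lysosomes and is secreted by activated macrophages. Cortical microglia-like cells held 2.09, 1.33 and 2.08 CPM and hippocampal ones 5.07, 6.10 and 8.13 CPM, which did not overlap. In the cortex the gene was concentrated in macrophage-like cells, at 639, 630 and 707 CPM, which supplied 75.1% of its UMIs in the kept cells. In the hippocampus ependymal-like cells led with 378, 349 and 382 CPM, or 372 CPM in all without shared barcodes. They were followed by macrophage-like cells at 275, 93.7 and 296 CPM and epithelial-like cells at 85.4 CPM. Astrocyte-like and endothelial-like cells held 0.424 to 4.19 CPM.

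*Cd9* encodes a tetraspanin of the cell surface that organises integrins and other membrane proteins. It was found in 97.1% of cortical and 99.4% of hippocampal microglia-like cells, at 1215, 1303 and 1436 CPM and at 1537, 1624 and 1563 CPM. The hippocampal replicates lay above the cortical ones without overlap. Microglia, the most numerous class, supplied 72.2% and 49.7% of the *Cd9* UMIs of the kept cells and came second in level. Oligodendrocyte-like cells of the cortex held 2333, 4253 and 5675 CPM, and precursor-like cells of that lineage (OPCs) in the hippocampus held 5825, 6011 and 5332 CPM. Smooth muscle-like cells in the cortex (1118 CPM) and ependymal-like cells in the hippocampus (1281 CPM) came next below microglia, with no overlap of replicates.

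*Cd63* encodes a tetraspanin of late endosomes, lysosomes and exosomes. Microglia-like cells held 436, 486 and 524 CPM in the cortex and 474, 518 and 485 CPM in the hippocampus, and the groups overlapped. The level was highest in fibroblast-like cells of the cortex (1416 CPM) and epithelial-like cells of the hippocampus (1206 CPM, or 1200 CPM without shared barcodes). Astrocyte-like cells held 1147 and 1118 CPM, with replicates that overlapped those of the highest class in both preparations. In the cortex the macrophage-like, smooth muscle-like and microglia-like values of 489, 484 and 482 CPM were not separated by their replicates. Endothelial-like cells were lowest among the larger classes with 17.8 and 26.2 CPM.

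*Gpnmb*, the gene of a lysosomal and surface glycoprotein under control of the factor MITF, was nearly absent from microglia-like cells. No UMI was found in 6173 cortical cells, where 3 UMIs would be 0.0856 CPM and the Poisson interval reaches 0.105 CPM, and 4 UMIs were found in 5827 hippocampal cells (0.0984 CPM, 0.0268 to 0.252). All 26 UMIs of the kept cortical cells came from astrocyte-like cells at 1.51 CPM. In the hippocampus OPC-like cells held 7.67 CPM, with replicates at 0, 12.2 and 9.24 CPM, and astrocyte-like cells 3.02 CPM. Macrophage-like cells held 0 UMIs in both preparations.

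**Figure D1:**
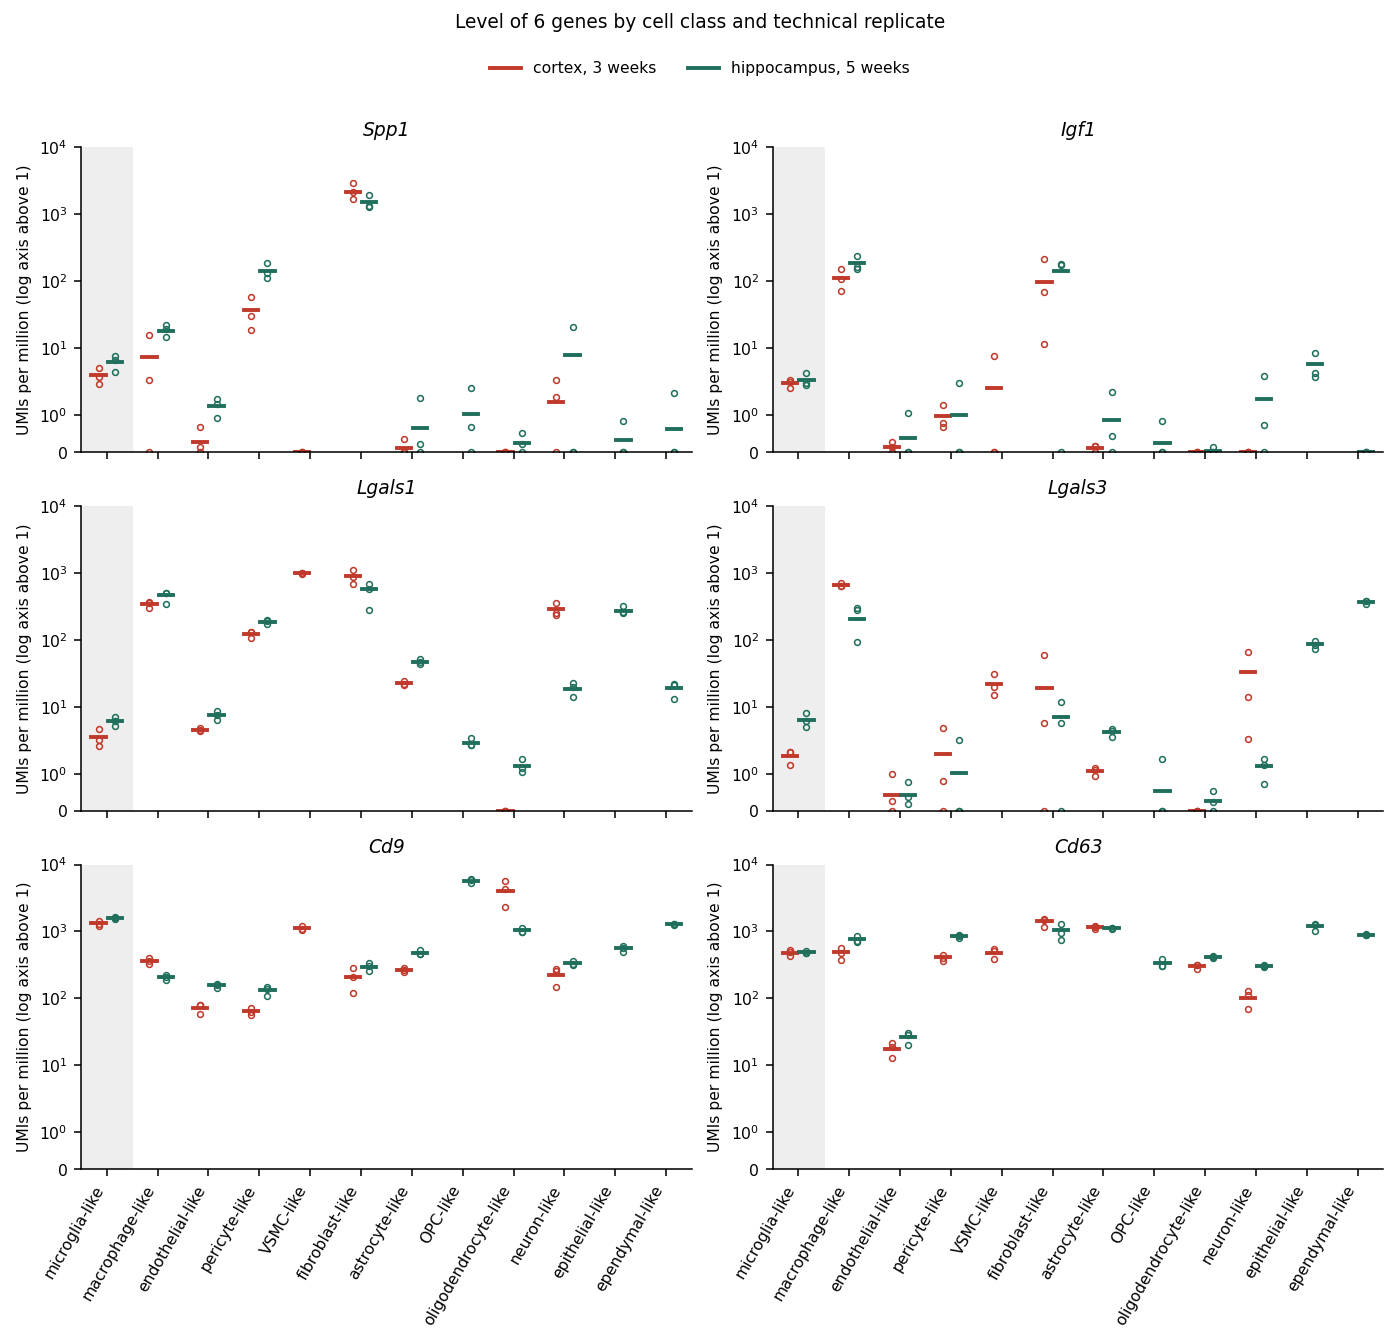
Level of 6 genes in CPM (linear up to 1, log axis above) for each cell class of the cortex (red) and the hippocampus (green). Points are technical replicates, bars are the 3 replicates summed, and the grey band marks microglia-like cells. Red and green bars are missing where a class was not named, and the B-cell-like, erythroid-like and unnamed clusters are left out. *Spp1* stood at 2196 and 1548 CPM in fibroblast-like cells against 3.94 and 6.32 CPM in microglia-like cells, whereas for *Cd9* microglia-like cells were second to oligodendrocyte-like or OPC-like cells.

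Across the named classes of at least 50 cells, 0 of the 7 genes were at their highest in microglia-like cells in either preparation, beside 14.1% in the cortex and 11.2% in the hippocampus over all genes with at least 20 UMIs in the kept cells. Over all named cortical classes the microglial level had rank 4 for *Spp1*, 3 for *Igf1*, 9 for *Lgals1*, 6 for *Lgals3*, 2 for *Cd9* and 5 for *Cd63*. Cells outside the named classes also carried these genes. A cortical cluster of 20 cells, closest to the fibroblast markers but not named, held 609 CPM of *Spp1* and 1609 CPM of *Cd9*, the latter above cortical microglia-like cells. A hippocampal cluster of 314 cells (2.21% of the preparation) led by the myeloid genes *Cd52* and *Tyrobp* had a median of 1980 UMIs and too few microglial markers to be named. It held 31.6 CPM of *Spp1*, 61.3 CPM of *Lgals3*, 731 CPM of *Cd63* and 1601 CPM of *Cd9*. Its values are in none of the microglial levels. A shallow group of the cortex is in them, namely subcluster 6 described further on (190 cells, median 1469 UMIs). The region contrast of microglia-like cells thus sets somewhat unlike cells against each other, and the effect of this was not tested.

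The region contrast was then read in microglia-like cells as the log2 ratio of hippocampus over cortex. Over 11119 genes with at least 100 UMIs, 2.12% were at least 2-fold higher in the hippocampus and 1.76% at least 2-fold lower, with a median log2 ratio of 0.10. Of the 6 genes of the list that passed this filter (not *Gpnmb*), 1 was at least 2-fold higher and 0 were lower, and their median was 0.47. Since the genes were listed with earlier results in view, nothing is read from that count. With a filter of 20 UMIs it was again *Lgals3* alone, beside 4.82% of genes higher and 2.75% lower. With a filter of 1 UMI *Gpnmb* joined it, beside 14.3% higher and 9.39% lower.

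*Lgals3* was the gene past 2-fold, at 1.83 CPM (64 UMIs) in the cortex and 6.40 CPM (260 UMIs) in the hippocampus. Its log2 ratio was 1.81 (1.41 to 2.23), a ratio of 3.50. Among the genes that passed the filter, 1.25% had a log2 ratio of that size or more in either direction. *Lgals1* followed at 0.82 (0.50 to 1.15), from 122 and 250 UMIs. *Spp1* stood at 0.68 (0.38 to 0.99) with overlapping replicates. *Cd9* differed by 0.26 (0.24 to 0.28) without overlap, *Igf1* by 0.16 (-0.22 to 0.54) and *Cd63* by 0.03 (0.00 to 0.06), both with overlapping replicates. Leaving out cortical replicate 1 brought *Lgals1* to 1.09, past 2-fold.

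Several of these genes were also higher in the hippocampus in other classes. In astrocyte-like cells *Lgals3* was at a log2 ratio of 1.93 (1.16 to 2.76), *Lgals1* at 1.07 (0.89 to 1.26) and *Cd9* at 0.87 (0.82 to 0.93), each with every hippocampal replicate above every cortical one. *Cd9* was at 1.10 (1.01 to 1.20) in endothelial-like cells and 1.05 (0.79 to 1.30) in pericyte-like cells. *Spp1* was at 1.95 (1.66 to 2.24) in pericyte-like cells and at 2.29 (0.94 to 3.88) in endothelial-like cells, there from 6 and 22 UMIs. These classes come from the same libraries as the microglia, and no difference between classes was tested.

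Depth differed between the preparations, so cells were also thinned to 1000 UMIs. The share of microglia-like cells with a UMI of *Lgals3* was then 0.151% in the cortex and 0.416% in the hippocampus (0.470% and 1.58% unthinned). The shares were 0.285% and 0.438% for *Lgals1* (1.38% and 2.21% unthinned) and 0.225% and 0.341% for *Spp1*. *Igf1* was at 0.273% and 0.268% (1.43% and 1.51% unthinned). *Cd9* was at 66.5% and 72.8% and *Cd63* at 31.6% and 30.6%. As a background, endothelial-like cells with a median of 6910 and 6580 UMIs showed *Lgals3* in 0.207% and 0.280%, *Spp1* in 0.248% and 0.841% and *Igf1* in 0.0828% and 0.187% of cells, unthinned, below the shares over all microglia-like cells. The largest microglial subclusters, described further on, held *Lgals3* in 0.0375% and 0.284%, *Spp1* in 0.188% and 0.757% and *Igf1* in 0.938% and 1.23% of cells. There *Igf1* lay above this background, hippocampal *Lgals3* close to it, and the other shares below it. For *Lgals1* they showed 2.98% and 3.92%, above the microglial shares, so nothing is read from the microglial share of *Lgals1* over all cells. *Cd9* and *Cd63* were found in 25.8% and 34.4% and in 8.99% and 9.95% of endothelial-like cells, below the microglial shares.

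Free RNA was estimated from the markers of the other classes. For each class the median ratio of its markers, microglia-like cells over that class, gave the fraction of its RNA that microglial droplets carry. The class level of a gene times that fraction, summed over the named classes, is the free-RNA estimate for the gene. Unnamed clusters were not among the sources. The ratio was small for the strongest sources, 0.0128% and 0.00963% for fibroblast-like cells and 0.0366% and 0.0212% for macrophage-like cells. It was 0.602% and 0.282% for astrocyte-like cells.

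For *Spp1* the estimate was 0.318 CPM in the cortex and 0.263 CPM in the hippocampus, mainly from fibroblast-like cells, and the measured levels were 12.4 and 24.0 times that. For *Igf1* it was 0.0580 and 0.0704 CPM, mainly from macrophage-like cells, and the levels were 51.6 and 47.5 times higher. Apart from *Gpnmb*, *Lgals1* was closest to its estimate. Free RNA came to 0.983 CPM or 28.3% of its cortical level and to 0.721 CPM or 11.7% of its hippocampal level, with neuron-like cells and epithelial-like cells as the main sources. For *Lgals3* the estimate was 0.290 and 0.303 CPM, mainly from the macrophage-like class in the cortex and from ependymal-like cells in the hippocampus, or 15.9% and 4.73% of the level. The macrophage-like class also holds monocytes, described further on, while its fraction was taken from macrophage markers. *Cd9* lay 285 and 136 times above its estimate, and *Cd63* 59.0 and 62.8 times. These ratios are over all microglia-like cells. In the largest subclusters, described further on, cortical *Spp1* and both galectins were under 2 times their estimates.

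**Figure D2:**
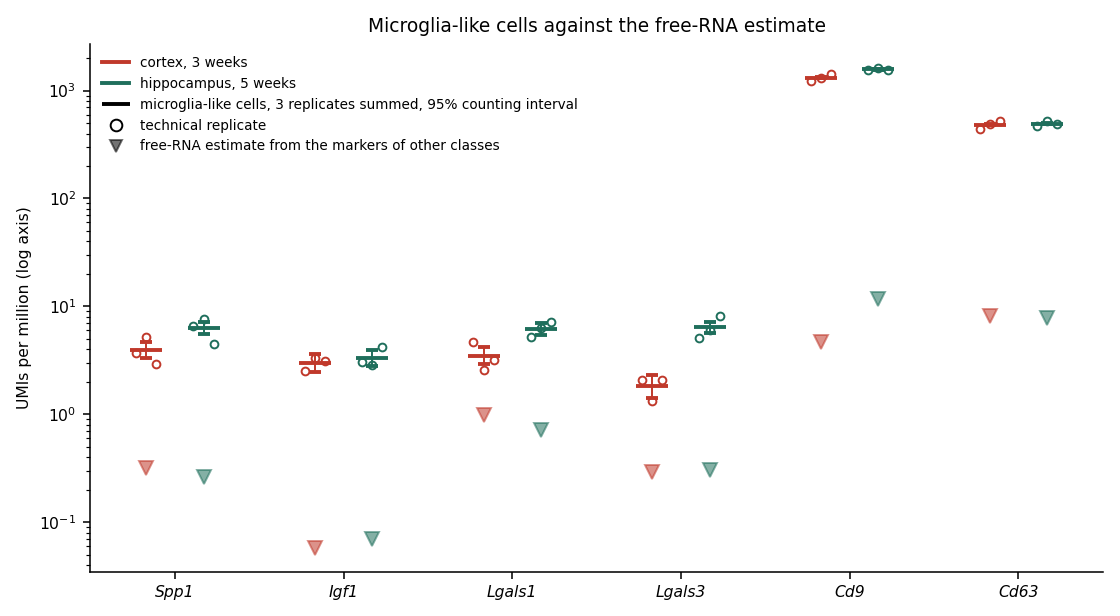
Level of 6 genes in microglia-like cells in CPM (log axis) for the cortex (red) and the hippocampus (green). Bars are the 3 replicates summed with exact 95% Poisson intervals, circles are technical replicates, and triangles are the free-RNA estimates from the markers of other classes. Every bar lies above its triangle, by 3.54 times for *Lgals1* in the cortex and by 285 times for *Cd9* there.

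By this measure 6 of 7 genes in the cortex and 7 of 7 in the hippocampus were at least 2 times above free RNA, with *Gpnmb* at 0 UMIs in the cortex. Over all genes with at least 20 UMIs in the kept cells it was 85.3% in the cortex and 81.7% in the hippocampus, so nothing particular to the list is read from these counts. The *Gpnmb* ratio of 5.96 in the hippocampus rests on 4 UMIs. The count depended on the marker used. When the highest ratio of any marker replaced the median, only *Cd9* and *Cd63* were 2 times above in each preparation, because markers such as *Stab1* reached 30.1% of their macrophage level in cortical microglia-like cells. That upper estimate was 2.84 CPM for *Spp1* in the cortex and 197 CPM for *Lgals3*, above the measured 1.83 CPM. Free RNA cannot come to more than the measured level, so the upper estimate is too high for *Lgals3* there.

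Barcodes of erythrocytes, which have few transcripts of their own beyond haemoglobin, gave a second reading of free RNA. Only those with under 250 genes were taken, which limits the free RNA they can show. The 3265 such barcodes of the cortex held 4 UMIs of *Spp1* or 0.00123 per barcode, against 0.0224 per microglia-like cell. They held 0 UMIs of *Igf1* and *Lgals3* and 3 of *Lgals1*, while microglia-like cells held 0.0170, 0.0104 and 0.0198 UMIs per cell. *Cd9* was at 0.0132 per barcode against 7.48 per cell and *Cd63* at 0.0110 against 2.74. The hippocampus had 78 such barcodes, where 3 UMIs would be 0.0385 per barcode. *Spp1*, *Igf1*, *Lgals1* and *Lgals3*, at 0.0233 to 0.0446 UMIs per microglia-like cell, could not be told from free RNA with so few barcodes. The 314 erythroid-like cells of the cortex, kept as cells with at least 250 genes, held 831 UMIs of *Cd9* and 334 of *Cd63*. They held 4 of *Igf1*, 4 of *Lgals1*, 2 of *Spp1* and 1 of *Lgals3*, and were not part of this second reading.

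Microglia-like cells of each preparation were next divided into subclusters on their own, so subcluster bounds are not matched between preparations. The 7 genes and the lists of other phagocytic-state genes, galectins and tetraspanins were kept out of the clustering genes. In each preparation the subcluster with the highest summed *Lpl* and *Csf1* was taken, a choice made with earlier results of these data known. It held 215 cortical cells (3.48% of microglia-like cells) and 322 hippocampal cells (5.53%). Shares over replicates were 3.27 to 3.75% and 4.89 to 6.18%. Its leading genes were *Ccl4*, *Gas2l3*, *Ccl2* and *Ccl3* in the cortex and *Gas2l3*, *Ccl4*, *Plaur* and *Nes* in the hippocampus, and it is called the *Lpl*-high subcluster here.

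Most microglial UMIs of *Spp1* and *Lgals3* lay in these cells. *Spp1* held 55.3 CPM (44.2 to 68.3) in the cortex and 61.6 CPM (52.8 to 71.4) in the hippocampus, against 1.55 and 2.19 CPM in the remaining microglia-like cells. The subcluster supplied 62.3% and 67.7% of microglial *Spp1* UMIs. The replicates varied from 16.3 to 91.4 CPM and from 36.5 to 84.5 CPM, and without the single highest cell the levels were 38.8 and 41.9 CPM.

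*Lgals3* stood at 29.6 CPM (21.7 to 39.5) and 76.8 CPM (66.9 to 87.7) against 0.537 and 1.14 CPM outside, and the subcluster supplied 71.9% and 83.5% of its microglial UMIs. *Lgals1* stood at 28.9 and 54.5 CPM against 2.30 and 2.54 CPM. *Igf1* was less concentrated, at 9.65 and 13.4 CPM against 2.69 and 2.59 CPM, with 14.3% and 27.9% of its UMIs inside.

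The tetraspanins, the most abundant of the listed genes in microglia-like cells, were also higher there. *Cd63* held 1684, 2115 and 2084 CPM in the cortical replicates and 1866, 2108 and 2146 CPM in the hippocampal ones, against 414 and 377 CPM outside. *Cd9* held 3676 and 3825 CPM against 1209 and 1408 CPM. The folds were 4.75 and 5.42 for *Cd63* and 3.04 and 2.72 for *Cd9*. *Gpnmb* held 0 UMIs and 1 UMI.

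**Figure D3:**
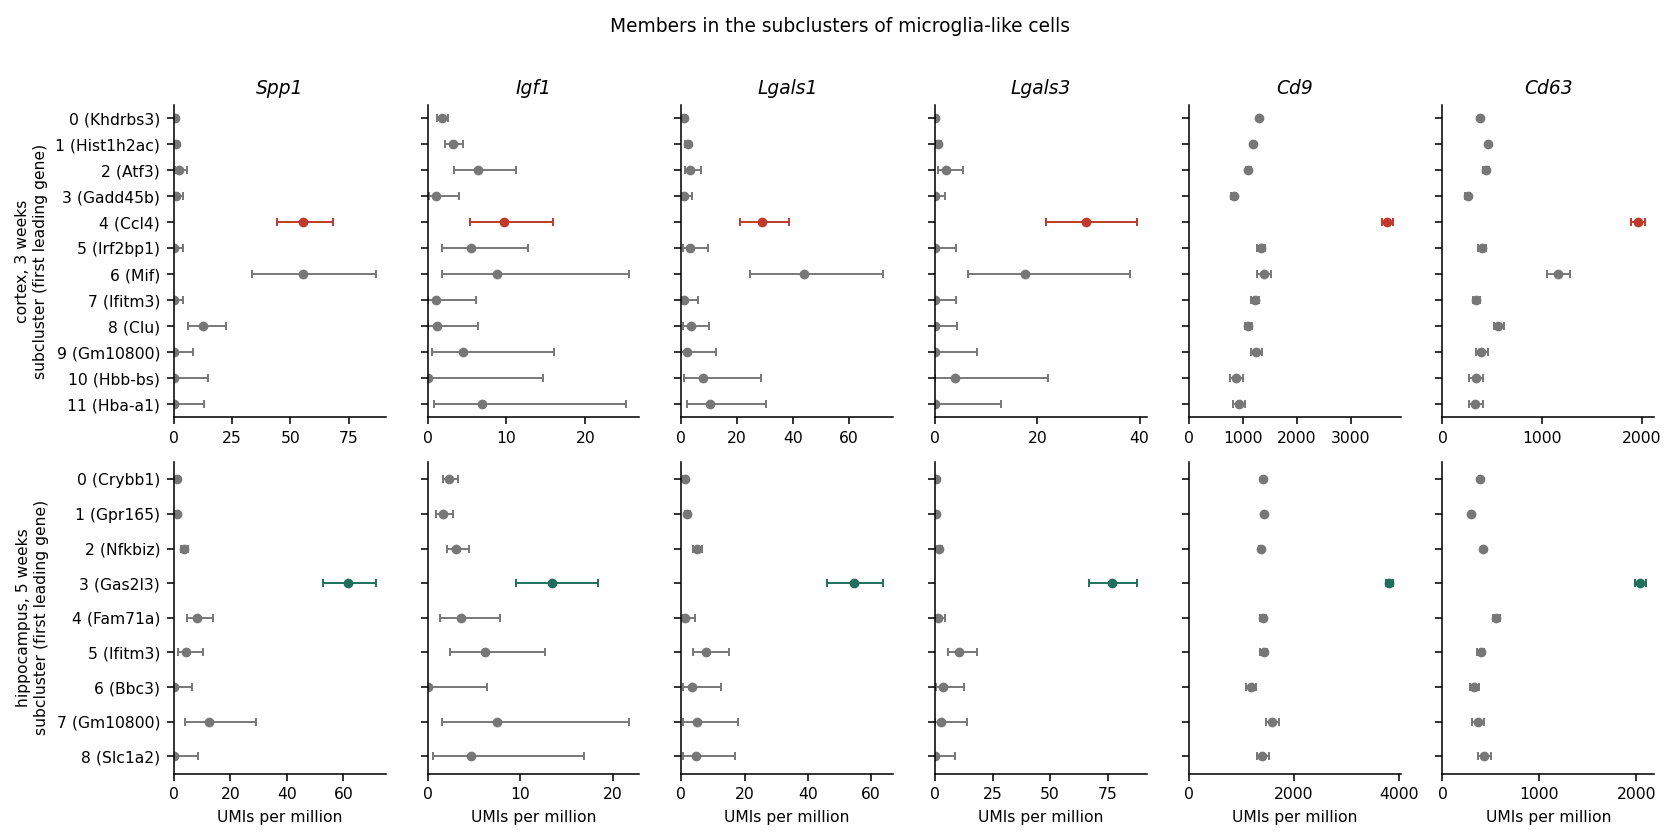
Level of 6 genes in CPM (linear axes, scaled per panel) in each microglial subcluster of the cortex (top) and the hippocampus (bottom), with exact 95% Poisson intervals. Subclusters are numbered and carry their first leading gene, and the coloured points are the *Lpl*-high subcluster (4 in the cortex, 3 in the hippocampus). It is highest for all 6 genes in the hippocampus and for 4 in the cortex, where subcluster 6, with a median of 1469 UMIs, has a higher value of *Spp1* and *Lgals1* with overlapping intervals.

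Some other genes of the phagocytic state were higher in the same subcluster, named after their values were seen and without a count over their list. Chemokine genes were high there too. *Ccl4* held 2908 and 1920 CPM against 182 and 206 CPM outside, and *Ccl3* 1347 and 1179 CPM against 128 and 221 CPM. *Cst7*, a cathepsin inhibitor, held 77.8 and 76.4 CPM against 7.85 and 7.75 CPM outside, and *Itgax*, the CD11c integrin, 21.9 and 37.2 CPM against 2.03 and 3.17 CPM. *Lpl*, a lipase, and *Csf1*, the ligand of the CSF1 receptor, chose the subcluster and stood at 252 and 358 CPM and at 210 and 162 CPM. The homeostatic genes *P2ry12* and *Tmem119* were lower, at 2075 and 1755 CPM against 3853 and 3677 CPM and at 837 and 759 CPM against 1657 and 1536 CPM.

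Markers of fibroblasts were at or near 0 in these cells, and single macrophage markers were not. In the cortical subcluster 8 of 8 fibroblast markers and 7 of 10 macrophage markers held 0 UMIs, and the median ratio of both lists was 0. The free-RNA estimates there were 0.000794 CPM for *Spp1* and 0.00588 CPM for *Lgals3*. Medians of 0 drop both sources from these estimates, which over all cortical microglia-like cells were 0.318 and 0.290 CPM. Few marker UMIs can be counted in 215 cells, so the low estimates are not read as less free RNA. In the hippocampal subcluster 6 of 9 fibroblast and 4 of 10 macrophage markers held 0 UMIs, the median macrophage ratio was 0.0518%, and the estimates were 0.148 CPM for *Spp1* and 0.393 CPM for *Lgals3*. The highest ratio of any macrophage marker was 27.2% in the cortical and 17.0% in the hippocampal subcluster, beside 30.1% and 18.0% over all microglia-like cells. Doublets were called for 5.58% and 2.80% of its cells, against 4.33% and 3.59% of all microglia-like cells. Its cells were deeper, at a median of 6676 and 8419 UMIs. The shares of cells thinned to 1000 UMIs were 3.59% and 3.12% for *Spp1*, 2.33% and 5.39% for *Lgals3*, and 93.1% and 95.4% for *Cd9*.

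Inside the subcluster the region contrast of *Lgals3* had a log2 ratio of 1.38 (0.91 to 1.87), with every hippocampal replicate above every cortical one, and fell under 2-fold, to 0.98, without cortical replicate 2. *Lgals1* was at 0.91 (0.43 to 1.43), but its replicates overlapped, at 52.1, 9.93 and 25.3 CPM in the cortex and from 43.6 to 74.2 CPM in the hippocampus. With 1 replicate left out it ranged from 0.52 (without cortical replicate 2) to 1.60 (without cortical replicate 1). *Spp1* was at 0.15 (-0.23 to 0.54), and at -0.32 to 0.69 with 1 replicate left out, *Cd9* at 0.06 (0.01 to 0.10) and *Cd63* at 0.06 (-0.01 to 0.12). Outside it *Lgals3* was at 1.08 (0.26 to 1.96) from 18 and 43 UMIs, below the filter of 100 UMIs, and *Lgals1* at 0.14 (-0.30 to 0.59). *Spp1* was at 0.50 (-0.02 to 1.03) and *Cd63* at -0.13 (-0.17 to -0.10). The share of the subcluster, drawn separately in each preparation, was larger in the hippocampus. This larger share lies beside the microglial differences of *Spp1* and *Lgals1*, and its part in them was not tested.

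Single cells carried much of the *Spp1* RNA. In the cortex 15 microglia-like cells with at least 2 UMIs held 96 of the 138 UMIs, and 9 of them were in the *Lpl*-high subcluster. In the hippocampus 33 such cells held 200 of 257 UMIs, 22 of them in the subcluster, and the highest cells held 26 and 56 UMIs. The 33 cells had 2408 CPM of *Cd63* and 3285 CPM of *Cd9*, against 468 and 1546 CPM in cells without *Spp1*. *Igf1* held 0 UMIs in the 33 cells, and 3 UMIs (27.0 CPM) in the 15 cortical ones. Hippocampal cells without *Spp1* held 3.32 CPM of *Igf1*, so 0 UMIs in 33 cells says little. *Col1a1*, the collagen gene that defines fibroblasts, held 0 UMIs in these cells in both preparations, as did *Pf4*, a macrophage marker. In cells without *Spp1* these were also low, at 0.231 and 0.126 CPM for *Col1a1* and 1.39 and 0.829 CPM for *Pf4*. So few cells could hardly show a UMI of either at such levels. Pericyte markers were not looked at. Nothing about RNA of other cells is read from these 0 UMIs. *Mrc1*, another macrophage marker, was at 90.1 CPM in the 15 cortical cells against 30.2 CPM in cells without *Spp1*, and at 27.1 against 12.5 CPM in the hippocampus.

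Cells with *Lgals3* lay mostly in the *Lpl*-high subcluster. The 44 hippocampal microglia-like cells with at least 2 UMIs of *Lgals3* included 39 in the subcluster. They held 3052 CPM of *Cd63*, 185 CPM of *Lgals1* and 61.0 CPM of *Igf1*, against 452, 3.67 and 2.67 CPM in cells without *Lgals3*. *Mrc1*, *Pf4* and *Col1a1* were at 0 UMIs in them. Markers of monocytes, ependymal-like and epithelial-like cells, which held more *Lgals3* than microglia-like cells in the hippocampus, were not looked at. Nothing about RNA of other cells is therefore read from the 0 UMIs. In the cortex 10 cells with at least 2 UMIs of *Lgals3* held 2927 CPM of *Cd63* and 71.7 CPM of *Lgals1*. Cells with at least 2 UMIs of *Igf1* were spread more widely, with 2 of 10 in the cortical subcluster and 6 of 25 in the hippocampal one. The 10 cortical cells held 16 UMIs of *Spp1* and the 25 hippocampal ones 0 UMIs. In those 25 cells 1 UMI is 4.29 CPM, and hippocampal cells without *Igf1* held 6.34 CPM of *Spp1*. Single cortical microglia-like cells held up to 26 UMIs of *Spp1*, so no difference between the preparations is read from this.

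Other subclusters gave high values beside signs of other cells. Cortical subcluster 6 (190 cells, median 1469 UMIs) held 55.5 CPM of *Spp1* and 43.8 CPM of *Lgals1*. Its median ratios were 2.91% for oligodendrocyte markers and 0.358% for fibroblast markers, its *Spp1* level was 6.72 times and its *Lgals1* level 6.82 times the free-RNA estimate, and 15 of its 19 *Spp1* UMIs came from 1 cell of replicate 3. In cortical subcluster 8, where astrocyte markers reached a median ratio of 14.4% and 33.6% of cells were called doublets, *Spp1* stood at 12.6 CPM from 2 cells. *Spp1*, *Lgals1* and *Lgals3* stood nearer to free RNA in the largest subclusters, number 0 in each preparation (2665 and 2113 cells). There *Spp1* was 1.24 and 6.15 times its estimate, *Lgals1* 1.44 and 1.59 times and *Igf1* 22.0 and 31.0 times. *Lgals3* held 0.0685 CPM (1 UMI) against an estimate of 0.429 CPM in the cortex and was at 1.32 times its estimate in the hippocampus.

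Macrophage-like cells are the nearest relatives of microglia. They had the highest summed level of *Igf1*, though the order with fibroblast-like cells could not be read. In the cortex they were also the highest class for *Lgals3*. Their leading genes held those of perivascular macrophages and of monocytes together, so each cell was also classed by its own marker UMIs. By these, 78 cortical and 118 hippocampal cells were macrophages and 57 and 18 cells were monocytes, 33.7% and 8.11% of the class.

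The 2 kinds of cell split the genes. *Igf1* held 284 CPM (233 to 342) and 402 CPM (352 to 458) in cells with macrophage markers, and 0 UMIs in those with monocyte markers (3 UMIs would be 6.87 and 13.8 CPM, and the Poisson intervals reach 8.44 and 16.9 CPM). *Cd63* was divided in the same direction, at 1050 and 1389 CPM against 9.16 and 4.59 CPM. *Lgals3* was divided the other way, at 92.0 and 3.51 CPM in cells with macrophage markers and 1192 and 1038 CPM in those with monocyte markers. *Cd9* stood at 28.1 and 12.3 CPM against 572 and 473 CPM. *Lgals1* did not separate them, at 383 and 473 CPM and at 339 and 510 CPM, with overlapping intervals. A further 32 hippocampal cells of the class carried microglial markers and held 108 CPM of *Igf1*. *Lgals1* was highest in 25 hippocampal cells with T or NK cell markers, at 748 CPM (634 to 878).

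**Figure D4:**
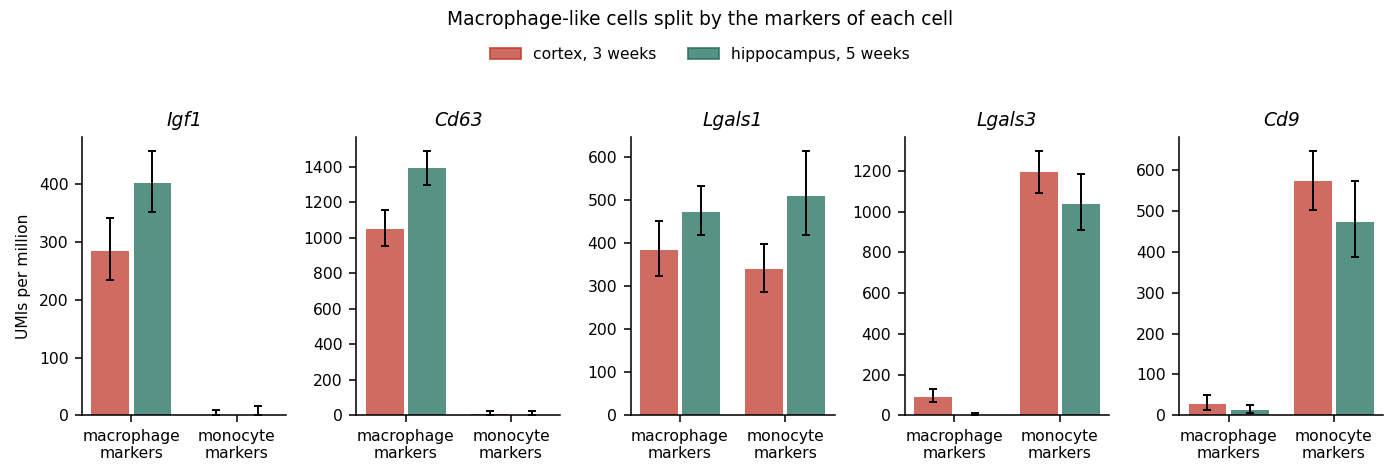
Level of 5 genes in CPM (linear axes from 0, scaled per panel) in macrophage-like cells that carry macrophage or monocyte markers of their own, for the cortex (red) and the hippocampus (green), with exact 95% Poisson intervals. *Igf1* and *Cd63* are high in cells with macrophage markers and *Lgals3* and *Cd9* in those with monocyte markers, while *Lgals1* is at 339 to 510 CPM in all 4 bars.

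In the whole macrophage-like class *Lgals3* was lower in the hippocampus, at a log2 ratio of -1.65 (-1.85 to -1.46), and *Cd9* was at -0.81 (-1.02 to -0.59), both without overlap of replicates and opposite to microglia. *Igf1* was at 0.77 (0.46 to 1.08) and *Cd63* at 0.65 (0.51 to 0.81). The share of cells with monocyte markers moved with these differences. Other shares moved too. Cells with microglial markers were 5.33% of the class in the cortex and 14.4% in the hippocampus. Those with T or NK cell markers (11.3%) and B cell markers (4.95%) were found in the hippocampal class only. The part of this makeup in the differences was not tested.

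Another 5 lists of related genes were counted in the same way in microglia-like cells, against the 2.12% higher and 1.76% lower over all genes. Of 19 other phagocytic-state genes 15 passed the filter, 0 were at least 2-fold higher and 1 was lower, with a median log2 ratio of 0.06. *Ctsd*, the most abundant, held 8187 and 8522 CPM, *Itgax* was at 0.93 (0.58 to 1.28) and *Fabp3*, a fatty acid binding protein, at -1.05 (-1.63 to -0.49). Of 4 other galectins and 8 other tetraspanins that passed it, 0 were 2-fold apart, with medians of 0.03 and -0.04. *Lgals9* was the most abundant of these galectins at 130 and 129 CPM, and *Lgals8* was at 0.40 and *Lgalsl* at -0.32. *Cd81*, the most abundant tetraspanin of that list, was at 2776 and 2702 CPM, with *Cd151* at 0.34 and *Cd37* at -0.49.

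Partners of the listed proteins include integrins for osteopontin, binding proteins of IGF1 and the kinase *Syk* with its adaptor *Card9*. Of 10 that passed the filter, 0 were 2-fold higher and 1 was lower, at a median of 0.13. The integrin gene *Itgb5* held 866 and 1066 CPM, *Card9* was at 0.48 (0.35 to 0.62) and *Igfbp2* at -1.54 (-1.94 to -1.16). Of 8 homeostatic genes 0 were 2-fold apart, with *P2ry13* at 0.27 and *Tmem119* at -0.13.

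The pattern of each gene over the 7 classes of at least 50 cells in both preparations (14 points, which share libraries and differ in depth) was matched to all genes of at least 50 CPM in 1 class. By the Pearson correlation of log2(CPM + 1), *Igf1* was most like *Ccl7*, *Msr1* and *Ifi207* (0.97), and *Lgals3* was most like *Ccr2*, *AB124611* and *Slfn1* (0.97). *Spp1* was nearest to *Ggt5*, *Emilin1* and *Gprc5c* (0.91 to 0.93). Fibroblast-like, smooth muscle-like, OPC-like, ependymal-like and epithelial-like cells were not among the classes matched. In at least 1 preparation a class left out in this way was the highest for *Spp1*, *Gpnmb*, *Lgals1*, *Lgals3*, *Cd9* and *Cd63*. *Lgals1* was nearest to *Ptpn22*, *Sept9* and *Jaml* (0.85 to 0.87), *Cd9* to *Slc35b2*, *Commd9* and *Iffo1* (0.88 to 0.91) and *Cd63* to *Rasa3*, *Oxct1* and *Spred1* (0.85 to 0.87). *Gpnmb*, at no more than 3.02 CPM in these classes, was nearest to *Gdpd2*, *Phkg1* and *Gm45184* (0.96 to 0.97).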

How the data were processed

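Droplet libraries of 2 cell suspensions, each run as 3 technical replicates, were analysed. The authors deposited counts of UMIs per gene and barcode. The submitters' processing notes name Cell Ranger 5.0.1 and mm10, while the file headers give 3.0.1 for the cortex and 3.1.0 for the hippocampus, with 31053 and 27998 genes. The genes and lists were chosen with earlier results of these data known. A barcode was kept as a cell if it had 250 to 6000 genes and less than 25% of its UMIs from mitochondrial genes (27530 of 33273, at library medians of 5800 to 6914 UMIs). The kept cells with the highest scores of scanpy's Scrublet were called doublets, at a set rate of 0.8% per 1000 barcodes of the library. Their number (638 and 581) follows from that rate, and they were kept in the main values. Cells were log-normalised to 10000. Each preparation was integrated over its replicates and clustered on its own in Seurat 5.3.0 (R 4.3.3). This used 2000 variable genes without the listed genes, 30 principal components and resolution 0.5. A cluster was named from at least 3 markers found in 20% of its cells at 2-fold or more (5 CPM added), unless its leading genes were of another class. Levels are summed UMIs per 1000000 with exact Poisson intervals, and shares of cells have exact Clopper-Pearson intervals (95%). Erythrocyte barcodes had under 250 genes and at least 50% haemoglobin UMIs. The procedures were tested on simulated data. Python 3.11.15 was used with scanpy 1.11.5, scipy 1.17.1 for intervals, and numpy 2.4.6, matplotlib 3.10.9 and pandas 2.3.3. With 1 suspension per group no test was made.

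The text names the listed genes. From each further list it names the gene with the highest microglial level and those with the largest rise and fall between preparations, and for each listed gene the 3 genes of highest correlation. *Lpl*, *Csf1*, *Cst7*, *Itgax*, *Ccl3*, *Ccl4*, *P2ry12* and *Tmem119* in the subclusters were named after their values were seen. Alternatives were cell weights, the gene total, mitochondrial limits, doublets, shared barcodes, cell naming, resolution, clustering genes, UMI filters, free-RNA measures and each replicate left out. A minimum of 20 cells per class, the removal of the *Lpl*-high subcluster, and each replicate left out inside that subcluster and in the classes opposite to microglia were added after seeing the data. *Clec7a* was not analysed here, and 1 gene that the rule names is not reported here.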

Additional observations from a re-analysis of the deposited data

Results flagged for a closer look

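In 5 cases another cell class differed between the preparations opposite to microglia-like cells in every replicate, and none of these differences was tested. *Lgals1* in neuron-like cells was at a log2 ratio of -3.95 (hippocampus over cortex, 289 and 18.7 CPM), against 0.82 in microglia-like cells. *Lgals3* was at -4.70 in neuron-like cells and at -1.65 in macrophage-like cells, against 1.81 in microglia-like cells. The neuron-like value rests on 42 and 6 UMIs. Cortical replicates held 14.2, 3.33 and 66.4 CPM, with 35 of the 42 UMIs in replicate 3 and 21 in 1 cell, and the ratio was -2.91 without that replicate. *Cd9* was at -0.81 in macrophage-like and -1.94 in oligodendrocyte-like cells, against 0.26 in microglia-like cells. The neuron-like class of the cortex was led by *Igfbpl1*, *Tubb3* and *Top2a*, and that of the hippocampus held a second cluster led by *Reln*. Cells with monocyte markers were 33.7% and 8.11% of the macrophage-like class, and those with microglial markers 5.33% and 14.4%. Cells with T or NK cell markers (11.3%) or B cell markers (4.95%) were found in its hippocampal part only. The oligodendrocyte-like class had 66 cells in the cortex and 1077 in the hippocampus. The part of these differences in makeup was not tested.

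Barcodes that were not kept as cells also carried the genes above the limit of 3 UMIs. Among barcodes with over 6000 genes, 6 genes passed that limit in the cortex (200 barcodes) and 7 in the hippocampus (378 barcodes). *Spp1* had 1014 UMIs there in the cortex (113 CPM), and *Lgals3* had 1340 UMIs in the hippocampus (60.2 CPM). Among barcodes with 25% or more mitochondrial UMIs it was 3 genes in the cortex and 6 in the hippocampus. Among barcodes with under 250 genes that were not erythrocytes it was *Cd9* and *Cd63* in the cortex, 2 genes, and 4 in the hippocampus, namely *Lgals1*, *Lgals3*, *Cd9* and *Cd63*. The 3 cortical genes in mitochondrial barcodes were *Lgals1*, *Cd9* and *Cd63*.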

How the results depend on the processing

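No paired analysis was possible because the replicates are technical runs of 1 suspension per region and no test was made. Of 79 recomputed counts 69 stayed within 1.5 times the reported count, and 10 did not. With each cell classed by its own markers, 1 gene was at its highest in cortical microglia. The same count was 1 to 1 when any cortical replicate was left out, where the gene was *Cd9* because the oligodendrocyte-like class then fell under 50 cells. The count of genes 2-fold apart between regions was 1 to 2 over the replicates left out (2 without cortex replicate 1, with *Lgals1*). It was 0 without the *Lpl*-high subcluster, where *Lgals3* had too few UMIs for the filter, and 2 with a filter of 1 UMI, where 14.3% and 9.39% of all genes were 2-fold higher and lower. With the highest marker ratio, 2 genes in the cortex and 2 in the hippocampus stood 2 times above free RNA, and with erythrocyte barcodes 2 in the hippocampus, each time *Cd9* and *Cd63*. Leaving out 1 replicate can hardly move a value by more than the spread between replicates, so little is read from those settings below. Of 363 recomputed levels and log2 ratios 342 moved by less than the spread between replicates. Of the other 21, 13 moved without the *Lpl*-high subcluster, 1 with equal cell weight and 7 with cells classed by their own markers, where *Lgals1* reached 6.98 CPM in cortical and 10.5 CPM in hippocampal microglia (3.48 and 6.15 CPM reported). No log2 ratio called 2-fold changed sign. Apart from the removal of the subcluster the microglial log2 ratio ranged from 1.61 to 1.95 for *Lgals3*, 0.40 to 1.09 for *Lgals1*, 0.50 to 0.94 for *Spp1* and 0.20 to 0.32 for *Cd9*, and from -0.02 to 0.53 for *Igf1* and -0.03 to 0.09 for *Cd63*. Few UMIs limit *Gpnmb*, *Igf1* and both galectins in microglia, and 1 suspension per region limits every regional difference.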
